A study of Homo sapiens with 12 samples.

Results

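A group of 8 well-known human small RNA genes whose transcripts are made without a poly(A) tail was followed in RNA sequencing of human leukemia cells: RN7SL1, RN7SL2, RN7SK, RMRP, RPPH1, RNU1-1, RNU4-2 and RNU5A-1. They were taken by gene symbol from the deposited count table, and all 8 symbols were found among 58395 genes, in 9 rows because RMRP is listed under 2 Ensembl identifiers. Only 4 of the 8 had any read: RN7SL2, RNU1-1, RNU4-2 and RNU5A-1 carried reads in every library. RN7SL1, RN7SK, RMRP and RPPH1 were listed at 0 in all 12 libraries.

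The libraries came from 3 lines with 4 libraries each. The first is K/VP.5/edit-3 (edit-3 for short), 1 clone of K/VP.5 whose TOP2A gene, encoding DNA topoisomerase IIα, was edited with CRISPR/Cas9 in the 5′ splice site between exon 19 and intron 19. The second, K/VP.5, is itself a clonal K562 subline with acquired resistance to etoposide, which poisons topoisomerase II. The last, K562, is the parental line, derived from a patient with chronic myeloid leukemia and widely used as an erythroid-like leukemia model. The growth notes in the labels mention 0.5 µM etoposide every other week in a sentence that covers all 3 lines, and does not separate them. The design sets the resistant subline beside its parent and the edited clone beside both. Gene counts do not check the edit itself, which changes splicing. Nothing in the labels ties the 4 libraries per line to separate cultures, and the tests therefore measure a spread that may be technical.

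Totals ran between 25311993 and 37065946 assigned reads, and 95.2% to 96.2% of reads fell on protein-coding genes in each library. Small nuclear RNA genes together took 0.0135% to 0.0308% of reads, and the highest share was in K562 replicate 2. The RNA was column-purified and DNase-treated, per the labels' protocols, and the sources used here do not say whether poly(A)+ RNA was selected. All 11 erythroid markers passed the filter on low counts, and their summed level ran at 2427 to 3798 CPM in edit-3, 2294 to 3056 CPM in K/VP.5 and 2639.9 to 4181 CPM in K562 (CPM is reads per 1000000 after TMM scaling). The embryonic globin gene HBE1 stayed below 1 CPM. Of 12 markers of other cell types 8 passed, with sums of 3040.02 to 5161 CPM in edit-3, 1159.96 to 1759 CPM in K/VP.5 and 896 to 1865 CPM in K562. The B cell marker MS4A1 was at 0 in all libraries. The fibroblast collagen gene COL1A2 ran at 1681 to 2951 CPM in edit-3, at 194 to 267 CPM in K/VP.5 and at 5.16 to 8.65 CPM in K562. The other collagen marker, COL1A1, ran at 4.30 to 9.91 CPM in edit-3, at 15.3 to 21.6 CPM in K/VP.5 and at 0.884 to 2.33 CPM in K562. The part of these differences in the small RNA results was not tested.

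These RNAs work inside ribonucleoproteins, where the RNA is the scaffold or the catalyst. The 7SL RNAs of RN7SL1 and RN7SL2 form the backbone of the signal recognition particle, which brings ribosomes making secreted and membrane proteins to the endoplasmic reticulum. The U1, U4 and U5 RNAs are parts of the spliceosome. U1 pairs with the 5′ splice site, U4 keeps U6 inactive until the spliceosome is activated, and the U5 loop holds the exon ends. The 7SK RNA of RN7SK holds the elongation kinase P-TEFb inactive. RMRP is the RNA of RNase MRP, which processes ribosomal RNA precursors, and RPPH1 is the catalytic RNA of RNase P, which trims the 5′ ends of tRNA precursors. U1, U4 and U5 are made by RNA polymerase II, and 7SL, 7SK, RMRP and RPPH1 by RNA polymerase III. In most protocols they reach an mRNA library in small amounts and as fragments, so a read count here is a level in these libraries and not a cellular abundance.

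Among the 7SL genes RN7SL2 was the member with the most reads, while its near twin RN7SL1 had none. RN7SL2 (ENSG00000274012) lies at chr14:49862550-49862849 on the minus strand of GRCh38. RN7SL1 (ENSG00000276168) lies at chr14:49586580-49586878 on the plus strand. RN7SL3 (ENSG00000278771) lies at chr14:49853616-49853914 on the minus strand. Each is a gene of a single exon in GENCODE release 29. Over 299 aligned bases RN7SL2 and RN7SL1 were 98.66% identical. RN7SL3 differed from RN7SL2 at 11 positions and was 96.32% identical.

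The U1 and U4 sequences, read from GENCODE release 29, are shown for the site at which U1 pairs and for how the U4 genes differ. RNU1-1 (ENSG00000206652) is at chr1:16514122-16514285 on the minus strand, RNU4-2 (ENSG00000202538) at chr12:120291763-120291903 on the minus strand, and RNU5A-1 (ENSG00000199568) at chr15:65296051-65296166 on the plus strand. RNU4-1, the other main U4 gene, lies beside RNU4-2 at chr12:120293097-120293237. Capitals mark the bases of U1 that pair with a 5′ splice site and the 4 positions at which the U4 genes differ.
RNU1-1: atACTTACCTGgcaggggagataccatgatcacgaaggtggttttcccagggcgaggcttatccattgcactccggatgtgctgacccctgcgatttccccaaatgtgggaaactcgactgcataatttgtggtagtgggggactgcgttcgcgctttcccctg
RNU4-2: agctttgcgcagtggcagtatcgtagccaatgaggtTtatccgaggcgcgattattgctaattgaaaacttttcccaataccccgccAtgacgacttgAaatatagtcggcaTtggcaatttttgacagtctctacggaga
RNU4-1: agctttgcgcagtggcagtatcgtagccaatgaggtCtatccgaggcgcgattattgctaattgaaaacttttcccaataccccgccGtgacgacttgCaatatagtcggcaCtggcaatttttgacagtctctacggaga
The U1 letters ACTTACCTG sit at positions 3 to 11. Searched on the transcript strand only, they occur in 50 of 1900 annotated snRNA transcripts (2.63%). The TOP2A site in the study's design pairs with the U1 letters at 6 of 9 bases before the edit (GAGGTAAAC) and at 8 of 9 after it (GAGGTAAGT). The perfect partner is CAGGTAAGT.

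The 4 members without reads were those whose annotation is shared with a second gene. RN7SL1 shares all of its 299 exonic bases, on the same strand, with AL139099.4, a gene of the class non_coding, and also lies within RPS29 on the opposite strand, outside its exons. RN7SK (ENSG00000283293, chr6:52995621-52995948, plus strand) shares all 328 with RF00100. RPPH1 (ENSG00000277209, chr14:20343075-20343407, minus strand) shares all 333 with AL355075.4. RMRP has 2 entries on the minus strand, ENSG00000277027 at chr9:35657754-35658017 and ENSG00000269900 at chr9:35657751-35658018, and the first lies wholly inside the second. Each of these second genes was listed at 0 in all libraries too. The 4 members with reads share no exonic base with any gene on their strand. RNU5A-1 lies within PARP16 on the opposite strand, and RN7SL2 within AL627171.2 on its own strand, outside the exons in both cases.

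**Figure D1:**
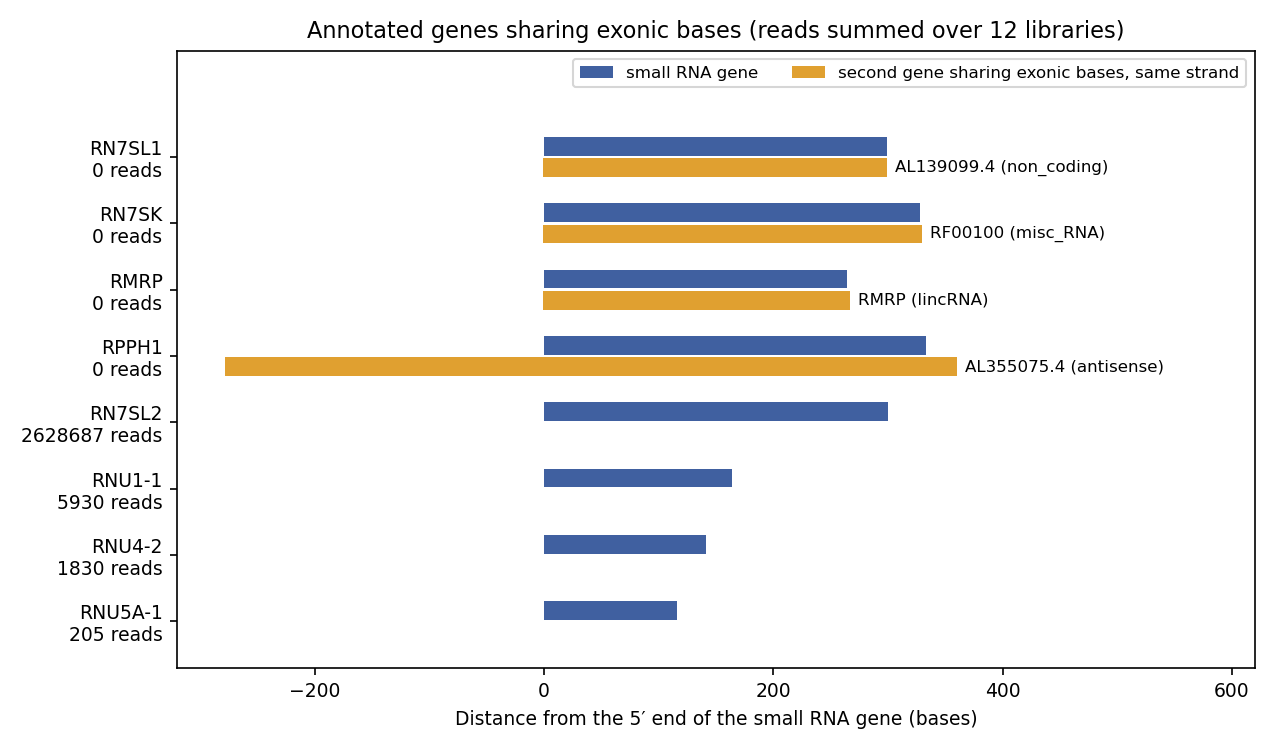
Position of each small RNA gene (blue) and of any second gene that shares exonic bases with it on the same strand (orange), in bases from the 5′ end of the small RNA gene, with reads summed over 12 libraries beside each name. RMRP is drawn for its ribozyme entry. The 4 genes with an orange bar have 0 reads, and the 4 without one have between 205 and 2628687 reads.

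The same held across the table for genes with every exonic base shared. Of 317 small RNA genes with every exonic base shared on the same strand, 316 (99.7%) had 0 reads in 12 libraries, and the exception, named after its value was seen, was SNORD63B with 273 reads. Of 4689 small RNA genes that share no base, 2492 (53.1%) had 0 reads. Among protein-coding genes 202 of 266 (75.9%) with every base shared had 0 reads, against 1991 of 16602 (12%) with none shared. These are counts over annotated genes and not over samples, so no test is given. The zeros were not read as levels of the 7SL, 7SK, RMRP or RNase P RNA in the cells. Taken as counts alone, 0 reads would allow up to 0.0809 to 0.119 CPM in a library, from 3 reads, which covers counting error only.

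**Figure D2:**
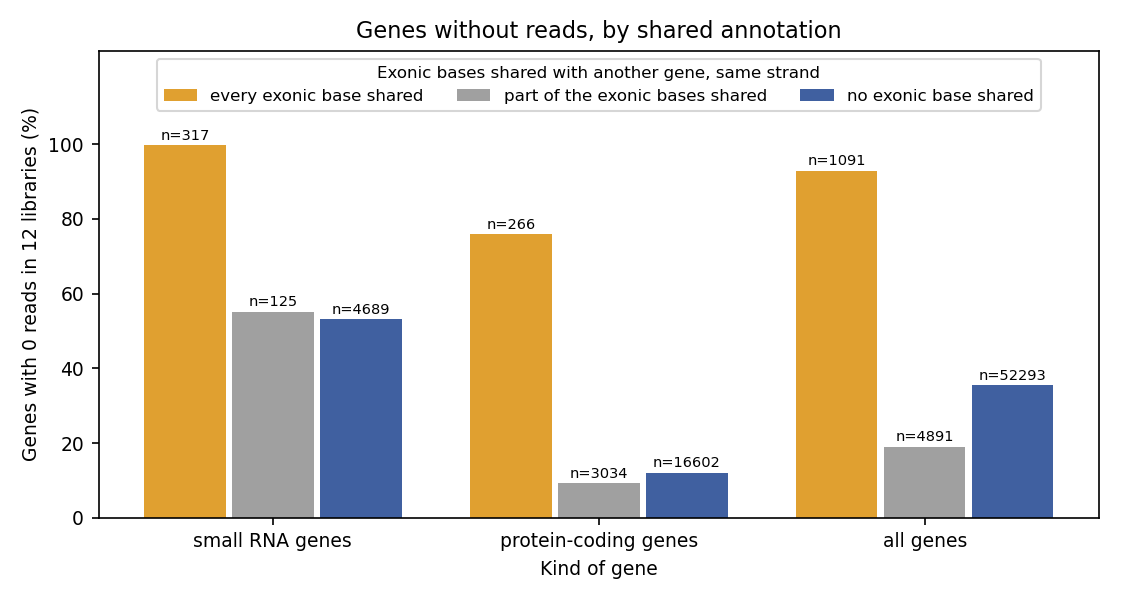
Share of genes with 0 reads in the 12 libraries (y axis, percent) for small RNA, protein-coding and all genes (x axis), by whether every, part or no exonic base is shared with another gene on the same strand. Bars for genes with every base shared stand highest in each kind, at 99.7%, 75.9% and 92.8%, and n is the number of genes.

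Copies of 7SL and 7SK carried reads, and those of RMRP and RPPH1 did not. RN7SL2 carried 2628687 reads in the 12 libraries, 73.7% of all reads on 680 genes named RN7SL. RN7SK copies carried 145558 reads, of which RN7SKP203 (chr2:76445079-76445410) held 85509 and RN7SKP71 (chr12:112267077-112267394) held 38396. These copies are 84.89% and 83.44% identical to RN7SK. For RMRP and RPPH1 all 3 genes of each name had 0 reads. Windows of 50 bases show how far a read could be placed: 217 of 251 windows of RN7SL2 (86.5%) occur unchanged in another gene elsewhere, 158 of them in RN7SL1. For RNU1-1 it was 115 of 115. It was 1 of 92 for RNU4-2 and 9 of 67 for RNU5A-1. The sources used here do not say how reads with several places were treated. Reads of RN7SL2 and RNU1-1 are therefore uncertain as to gene and are read as levels of 7SL and U1 sequences. RNU1-3 has the same 164 bases as RNU1-1, and 3171 reads were assigned to it against 5930 to RNU1-1.

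Levels are in CPM, and per kilobase of transcript where genes are compared. Per kilobase RN7SL2 stood far above the others, at 24485 ± 2897 in edit-3, 19228 ± 3376 in K/VP.5 and 29659.9 ± 1654 CPM per kilobase in K562 (SD, n = 4 each). RNU1-1 followed with 78.4 ± 25.9 in edit-3, 83.5 ± 9.44 in K/VP.5 and 140.0 ± 57.6 in K562. RNU4-2 reached 31.2 ± 11.5 in edit-3, 29.4 ± 6.67 in K/VP.5 and 48.1 ± 15.7 in K562. RNU5A-1 was lowest, at 4.43 ± 1.63 in edit-3, 6.46 ± 2.07 in K/VP.5 and 3.55 ± 0.785 in K562. The order was the same in all 3 lines, and neighbours in it lay more than 1 SD apart on each side.

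RN7SL2, the member with the most reads, was lowest in K/VP.5 and highest in K562. It had 8357, 6955, 7705 and 6365 CPM in edit-3. In K/VP.5 the 4 values were 6025, 6973, 5535 and 4541 CPM, and in K562 they were 8157, 9085, 9199.9 and 9150.1 CPM. Every K/VP.5 library lay below every K562 library, whereas edit-3 overlapped both other lines. The means were 7345 ± 869 CPM in edit-3, 5768 ± 1013 CPM in K/VP.5 and 8898 ± 496 CPM in K562 (SD, n = 4 each).

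RNU1-1, a U1 gene, was highest in K562. It had 16.9, 7.91, 15.8 and 10.8 CPM in edit-3. In K/VP.5 the 4 values were 13.9, 15.4, 13.8 and 11.6 CPM, and in K562 they were 22.3, 36.4, 14.8 and 18.4 CPM. K562 replicate 2 was the highest library and K562 replicate 3 fell within the range of the sublines, so K562 overlapped both. Means were 12.9 ± 4.24 CPM in edit-3, 13.7 ± 1.55 CPM in K/VP.5 and 23.0 ± 9.45 CPM in K562 (SD, n = 4 each).

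RNU4-2, a U4 gene, had 6.66, 3.304, 4.47 and 3.17 CPM in edit-3. In K/VP.5 the 4 values were 3.91, 4.75, 5.02 and 2.93 CPM, and in K562 they were 5.34, 10.1, 5.94 and 5.75 CPM. All K/VP.5 libraries lay below all K562 libraries, and edit-3 overlapped K562 through its replicate 1. Means were 4.40 ± 1.62 CPM in edit-3, 4.15 ± 0.941 CPM in K/VP.5 and 6.78 ± 2.22 CPM in K562 (SD, n = 4 each).

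RNU5A-1, a U5 gene, had few reads, with 24, 10, 12 and 17 in edit-3, with 24, 15, 30 and 26 in K/VP.5, and with 9, 16, 13 and 9 in K562. That gave 0.776, 0.334, 0.433 and 0.512 CPM in edit-3. In K/VP.5 the 4 values were 0.680, 0.531, 1.09 and 0.693 CPM, and in K562 they were 0.318, 0.524, 0.444 and 0.362 CPM. The K/VP.5 libraries all lay above the K562 libraries, by a small margin at the nearest pair. Means were 0.514 ± 0.189 CPM in edit-3, 0.749 ± 0.240 CPM in K/VP.5 and 0.412 ± 0.0911 CPM in K562 (SD, n = 4 each).

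**Figure D3:**
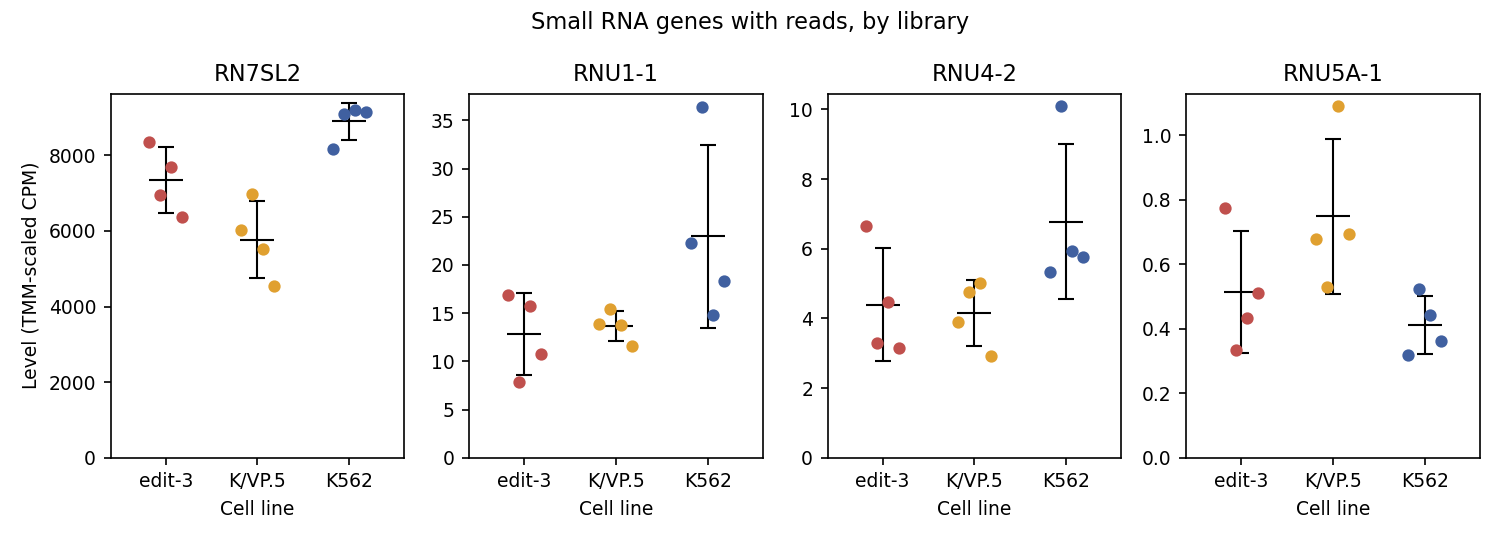
Level of each small RNA gene with reads (y axis, TMM-scaled CPM, own scale for each gene) in edit-3, K/VP.5 and K562 (x axis). Points are libraries, replicates 1 to 4 from left to right, and the black bars are the mean ± SD. RN7SL2 is lowest in K/VP.5 and highest in K562, and RNU1-1 and RNU4-2 have a high K562 library at 36.4 and 10.1 CPM.

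Several libraries stood high or low in more than 1 member. Edit-3 replicate 1 was the highest edit-3 library for all 4 members. K562 replicate 2 was the highest K562 library for RNU1-1, RNU4-2 and RNU5A-1, and also had the highest snRNA and snoRNA shares of any library, the snoRNA share being 0.0584%. K/VP.5 replicate 4 was the lowest K/VP.5 library for RN7SL2, RNU1-1 and RNU4-2. The part of these library-wide shares in the line differences was not tested.

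K/VP.5 against K562 gave the clearest result, a lower level of the 7SL sequence assigned to RN7SL2 in the resistant subline. Fold changes are log2, tested with edgeR's quasi-likelihood test across 18286 genes and called at a Benjamini-Hochberg adjusted p under 0.05. RN7SL2 fell by 0.63 (SE 0.113, adjusted p = 0.00054). The 7SL gene RN7SL3, which is not a member and is described below, went the other way, at 0.89 (adjusted p = 0.00594). RNU4-2 fell by 0.71 (SE 0.267, adjusted p = 0.0497), close to the threshold. RNU5A-1 rose by 0.84 (SE 0.310, adjusted p = 0.0464). The value for RNU1-1 was -0.75 and did not pass (SE 0.280, adjusted p = 0.0545). Thus 1 of 4 tested members rose and 2 fell, where 36.6% of all genes changed, 18.3% higher and 18.3% lower. Their median log2 fold change was -0.67, beside 0.0026 over all genes tested.

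The RN7SL2 call held in all 21 alternatives tried, at -0.73 to -0.52, and those of RNU4-2 and RNU5A-1 did not. Without K562 replicate 2 the RNU4-2 value was -0.46 (edgeR adjusted p = 0.203). It also lost its call without each K/VP.5 library (adjusted p = 0.112, 0.0687, 0.0518 and 0.141 for replicates 1 to 4), without K562 replicate 3 (0.0595) and without edit-3 replicate 3 (0.0655). The RNU4-2 call ended with DESeq2's size factors (0.0501), with library totals alone (0.0603) and with no filter (0.0836). For RNU5A-1 the edgeR call ended without K/VP.5 replicate 3, at 0.62 (adjusted p = 0.159), without replicates 1 or 4 of K/VP.5 (0.0701 and 0.0696), and without replicates 1, 3 or 4 of K562 (0.115, 0.0750 and 0.0931). It also ended without replicates 3 or 4 of edit-3 (0.0553 and 0.0607). With the replicate number as a block, which paired these 2 lines in part in the data, RNU5A-1 stood at 0.82 (edgeR adjusted p = 0.0588). Its call also ended with DESeq2 (0.0717) and with no filter (0.0655). RNU1-1 passed without K562 replicate 3, at -0.91 (adjusted p = 0.0206), without edit-3 replicate 2 (0.0360), with DESeq2 (0.0158), with a stricter filter (0.0453) and with only these 2 lines fitted (0.0471).

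Edit-3 against K/VP.5 compares 1 edited clone with the subline it came from. The edit cannot be told apart from other differences of that clone. RN7SL2 was the 1 member of 4 that rose, by 0.35 (SE 0.113, edgeR adjusted p = 0.0381), and none fell, at an unadjusted p under 0.05 or by DESeq2 either, where 23.6% of all genes changed, 12.9% higher and 10.6% lower. The lines overlapped, with 6365 to 8357 CPM in edit-3, against 4541 to 6973 CPM in K/VP.5. The call ended without any of edit-3 replicates 1 to 3 (adjusted p = 0.0951, 0.0523 and 0.0930), without K/VP.5 replicates 1, 3 or 4 (0.0808, 0.0988 and 0.129) and without K562 replicates 2 or 3 (0.0701 and 0.0501). Without K/VP.5 replicate 4 its value was 0.23, and with only these 2 lines fitted its adjusted p was 0.0782. For RNU1-1 the log2 fold change was -0.09 (SE 0.282), for RNU4-2 it was 0.09 (SE 0.269) and for RNU5A-1 it was -0.53 (SE 0.297), with edgeR adjusted p of 0.858, 0.854 and 0.230. The 4 members had a median of -0.0011, beside 0.0041 over all genes.

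Edit-3 against K562 compares the edited clone with the original parent, and shares its libraries with the other comparisons. RNU1-1 fell by 0.84 (SE 0.281, edgeR adjusted p = 0.0320), and no member rose, at an unadjusted p under 0.05 or by DESeq2 either, where 39.2% of all genes changed, 20.6% higher and 18.6% lower. The groups overlapped. The RNU1-1 call ended without K562 replicate 2, at -0.54 (adjusted p = 0.0939), without K562 replicate 1 (0.0551), and without edit-3 replicates 2 or 4 (0.0827 and 0.0845). It ended too with no filter (0.105) and with only these 2 lines fitted (0.0719). RN7SL2 stood at -0.28 (SE 0.113, adjusted p = 0.0678) and passed with only these 2 lines (0.0320), without edit-3 replicate 1, at -0.35 (adjusted p = 0.0306), and without K/VP.5 replicates 2 or 4 (0.0365 and 0.0249). RNU4-2 stood at -0.63 (SE 0.266, adjusted p = 0.0786) and passed without edit-3 replicate 1, at -0.90 (adjusted p = 0.0101). RNU5A-1 stood at 0.31 (SE 0.324, adjusted p = 0.489). The median of the 4 was -0.45, beside 0.0045 over all genes.

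**Figure D4:**
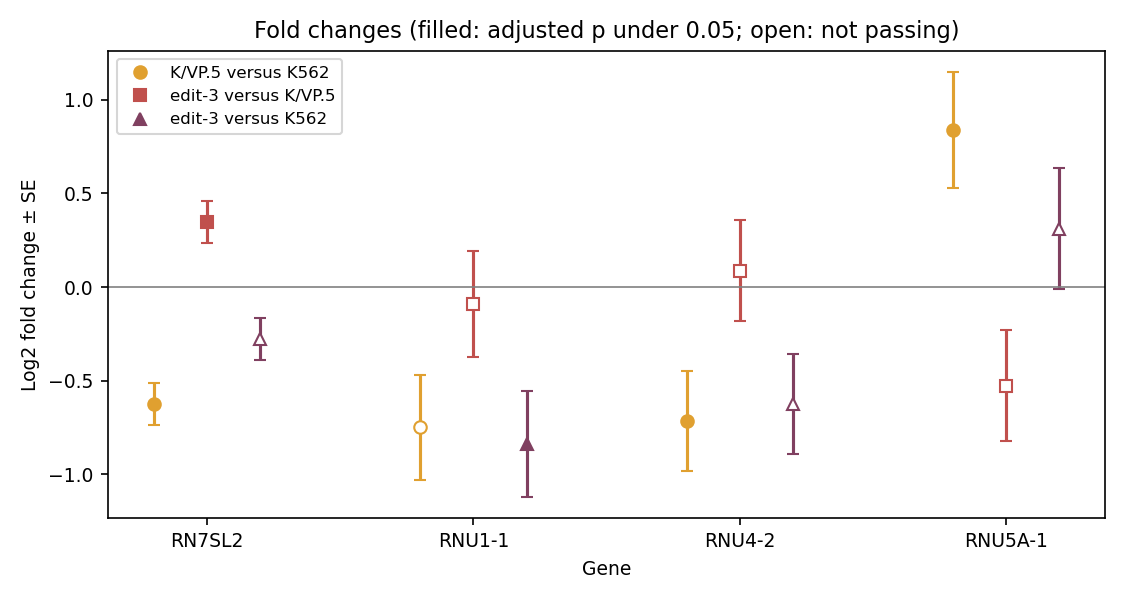
Log2 fold changes ± SE (y axis) of the 4 members with reads (x axis) in the 3 comparisons, with filled symbols where the edgeR adjusted p is under 0.05. RN7SL2 has the smallest errors, at 0.113, and RNU5A-1 lies above 0 in both comparisons with K562, at 0.84 and 0.31.

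Copies of the members were tested in the same fit. The counts below stand beside the shares of all genes changed. These were 36.6% in K/VP.5 against K562, 23.6% in edit-3 against K/VP.5 and 39.2% in edit-3 against K562. In K/VP.5 against K562, 1 of 29 tested RN7SL genes rose and 4 fell, in U1 genes 2 of 17 rose and 4 fell, both tested U4 genes fell, and 2 of 5 U5 genes rose. None of 10 RN7SK copies passed by edgeR, with 2 lower at an unadjusted p under 0.05 and 0 called by DESeq2. RN7SL4P, an RN7SL pseudogene at chr3:15738515-15738809, averaged 913 ± 87.3 CPM in K/VP.5 and 1408 ± 215 CPM in K562 (SD, n = 4 each) and fell by 0.62 (edgeR adjusted p = 0.000955). RN7SL5P, another at chr9:9442060-9442380 that is named after its values were seen, averaged 798 ± 124 CPM in K/VP.5 and 1191 ± 116 CPM in K562 (SD, n = 4 each) and fell by 0.58 (edgeR adjusted p = 0.00135). For both, all K/VP.5 libraries lay below all K562 libraries. Of the 50-base windows of RN7SL4P, 143 of 246 (58.1%) occur in another gene, 143 of them in RN7SL2. For RN7SL5P it was 160 of 272 (58.8%), with 160 in RN7SL1. Reads of both copies are therefore also uncertain as to gene, and their falls are not counted as separate from that of RN7SL2. Summing the reads of all RN7SL copies gave a log2 fold change of -0.56 (edgeR adjusted p = 0.00132), an alternative chosen after the data were seen. Summing the U5 copies gave 0.27 (adjusted p = 0.320), which did not pass, and summing the U1 copies gave -0.57 (adjusted p = 0.0479), which did. In edit-3 against K/VP.5 the summed RN7SL reads stood at 0.34 (edgeR adjusted p = 0.0410). There 2 of 29 RN7SL genes rose and 1 fell, and 1 of 17 U1, 1 of 5 U5 and 2 of 13 U6 genes fell. In edit-3 against K562, 2 RN7SL genes rose, 2 fell, and 6 of 17 U1 genes fell. For RNU1-1 and RNU1-3 alike, 115 of 115 windows occur in another gene. The U1 genes in these counts may therefore share reads and are not counted as separate results.

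RN7SL3 was higher in the sublines and is also named after its values were seen. It had 441, 477, 638 and 538 CPM in edit-3. In K/VP.5 the 4 values were 458, 614, 418 and 257 CPM, and in K562 they were 212, 251, 264 and 216 CPM. K562 was low and narrow, edit-3 lay wholly above it, and K/VP.5 overlapped it through its replicate 4. The log2 fold change was 1.15 (SE 0.215, adjusted p = 0.000991) in edit-3 against K562 and 0.89 (SE 0.214, adjusted p = 0.00594) in K/VP.5 against K562, by edgeR. In edit-3 against K/VP.5 it was 0.26 (adjusted p = 0.420). The gene lies on the same strand and chromosome as RN7SL2. Of its 50-base windows, 88 of 250 (35.2%) occur in another gene.

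**Figure D5:**
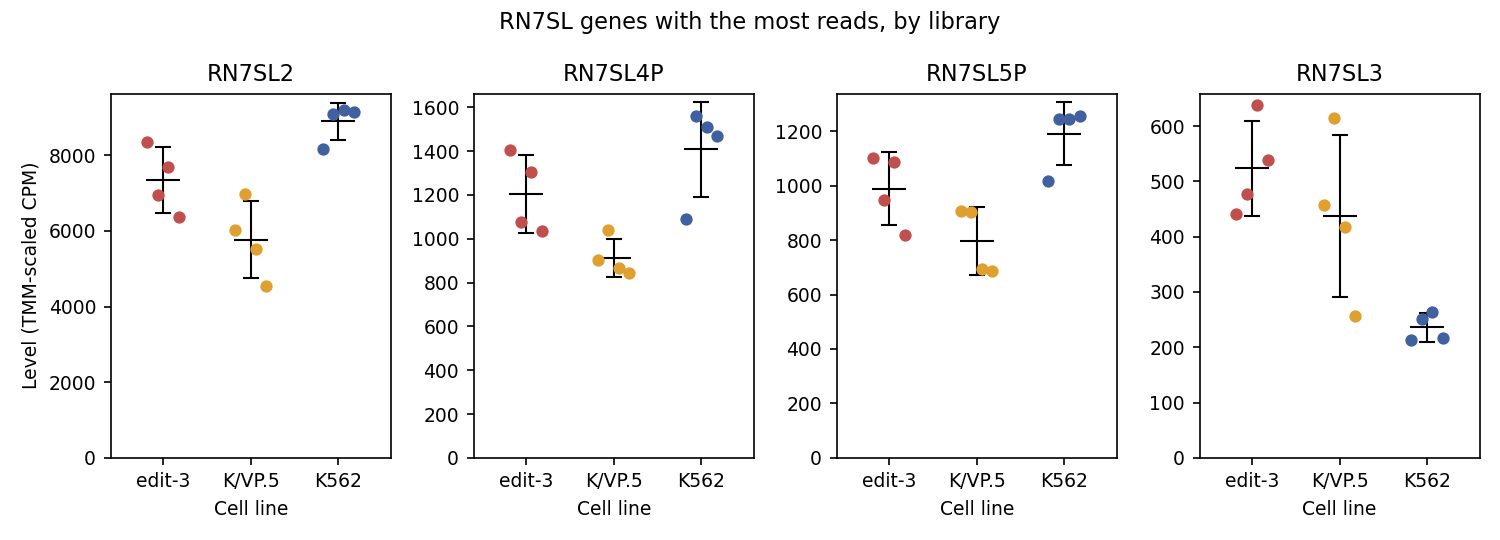
Levels of 4 RN7SL genes (y axis, TMM-scaled CPM, own scale for each) in edit-3, K/VP.5 and K562 (x axis). Points are libraries and black bars the mean ± SD. RN7SL2, RN7SL4P and RN7SL5P are lowest in K/VP.5, at means of 5768, 913 and 798 CPM, whereas RN7SL3 is lowest in K562, at 236 CPM.

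The RN7SK copies passed in none of the 3 comparisons by edgeR or DESeq2, and in edit-3 against K/VP.5 none had an unadjusted p under 0.05. RN7SKP203 averaged 224 ± 38.6 CPM in edit-3, 217 ± 16.1 CPM in K/VP.5 and 269 ± 52.5 CPM in K562 (SD, n = 4 each). Its log2 fold change in K/VP.5 against K562 was -0.31 (edgeR adjusted p = 0.112). RN7SKP71 averaged 103 ± 23.5 CPM in edit-3, 99.6 ± 8.17 CPM in K/VP.5 and 116 ± 25.7 CPM in K562, with a log2 fold change of -0.22 (edgeR adjusted p = 0.354) in K/VP.5 against K562. In edit-3 against K/VP.5 the values were 0.05 for each, with adjusted p of 0.856 and 0.869. Of the 50-base windows, 94 of 283 of RN7SKP203 (33.2%) and 96 of 269 of RN7SKP71 (35.7%) occur in another gene. Part of their reads is therefore also uncertain as to gene.

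Spliceosomal copies were described in the same way. Means ± SD are of 4 libraries. RNU4-1 averaged 8.43 ± 3.92 CPM in edit-3, 6.83 ± 1.79 CPM in K/VP.5 and 13.1 ± 4.44 CPM in K562, and fell by 0.94 in K/VP.5 against K562 (edgeR adjusted p = 0.0414). RNVU1-7, a variant U1 gene 99.39% identical to RNU1-1, averaged 10.6 ± 3.18 CPM in edit-3, 10.9 ± 1.97 CPM in K/VP.5 and 18.9 ± 7.62 CPM in K562. It fell by 0.79 in K/VP.5 (edgeR adjusted p = 0.0424) and by 0.84 in edit-3 (adjusted p = 0.0313) against K562. K562 overlapped both sublines. Of the 50-base windows of RNVU1-7, 100 of 115 (87%) occur in another gene. Its falls are therefore not counted as separate from the RNU1-1 values. RNU6-2, the U6 gene with the most reads, averaged 16.6 ± 4.46 CPM in edit-3, 26.8 ± 4.21 CPM in K/VP.5 and 27.2 ± 2.598 CPM in K562. It fell by 0.69 in edit-3 against K/VP.5 (edgeR adjusted p = 0.00998). There was no overlap, by a small margin, with at most 21.46 CPM in edit-3 and at least 21.54 CPM in K/VP.5. In edit-3 against K562 it fell by 0.71 (edgeR adjusted p = 0.00464). Windows shared with other U6 genes were not examined. Among U5 copies RNU5F-1 averaged 0.778 ± 0.231 CPM in edit-3, 1.62 ± 0.206 CPM in K/VP.5 and 1.002 ± 0.208 CPM in K562. It rose by 0.69 in K/VP.5 against K562 (edgeR adjusted p = 0.0293) and fell by 1.05 in edit-3 against K/VP.5 (adjusted p = 0.00437). Its reads were few, 12 to 29 a library in edit-3, 47 to 63 in K/VP.5 and 22 to 37 in K562. RNU5E-1, the U5 gene with the next most reads, passed in no comparison by edgeR (adjusted p = 0.402, 0.927 and 0.326). RNU2-63P, a U2 pseudogene, rose by 0.92 in K/VP.5 against K562 (edgeR adjusted p = 0.0029), from 44 to 56 reads a library in K/VP.5 and 15 to 28 in K562. RNU6ATAC, of the minor spliceosome, fell by 1.57 in edit-3 against K562 (edgeR adjusted p = 0.00707). It had few reads, 5 to 19 a library in edit-3 and 16 to 66 in K562, the 66 in K562 replicate 2. The lines overlapped. RNU6-881P, RNU4ATAC and the U7 pseudogenes RNU7-18P and RNU7-75P passed in no comparison by edgeR, and none had an unadjusted p under 0.05. RNU2-22P, the U2 copy with the next most reads, did not pass the filter on low counts and was not tested.

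Over all 52 tested snRNA genes 5 rose and 8 fell in K/VP.5 against K562, 0 rose (0 also at an unadjusted p under 0.05 and by DESeq2) and 4 fell in edit-3 against K/VP.5, and 1 rose and 12 fell in edit-3 against K562. All are counts beside the background shares given above, and they include U1 genes that may share reads.

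The genes most like each member within lines were found by correlation. Likeness was Pearson's r of log2 CPM over 12 libraries after each line's mean was removed, a description that shares library and depth. For RN7SL2 they were SCARNA6 (0.94), SNORD17 (0.91) and RN7SL5P (0.87). For RNU1-1 they were RNU1-3 (0.99), the U1 copy RF00003 (0.98) and RNVU1-7 (0.97). RNU1-3 is 100% and RNVU1-7 99.39% identical to RNU1-1, so the same reads may be spread over these genes. The r of such copies, and that of RN7SL5P, cannot be told apart from shared reads. For RNU4-2 they were SNORD3C (0.94), RNU4-1 (0.91) and RF00003 (0.89). For RNU5A-1, with its few reads, they were ATG9A (0.87), RPS7P11 (0.83) and CYB5A (0.82).

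Proteins that bind, make or process these RNAs were described through 115 genes in 9 lists, of which 114 were tested. In K/VP.5 against K562, 11 rose and 17 fell, a share of 24.6% changed beside 36.6% of all genes, with a median log2 fold change of -0.03. By edgeR none of the 8 signal recognition particle and receptor genes passed, with 3 at an unadjusted p under 0.05 and 0 by DESeq2. None of the 17 U4 and U5 protein genes passed, with 1 at an unadjusted p under 0.05 and 1 by DESeq2. Of 21 snRNA promoter and Integrator genes 2 rose and 7 fell. SNAPC4, the largest subunit of the complex that binds snRNA promoters, averaged 65.1 ± 6.05 CPM in K/VP.5 and 123 ± 15.7 CPM in K562 and fell by 0.92 (edgeR adjusted p = 0.000568). INTS3, of the Integrator complex that cuts snRNA 3′ ends, fell by 0.36, while INTS1 and INTS6 rose by 0.55 and 0.47.

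Of 24 RNA polymerase III genes 5 rose and 2 fell in K/VP.5 against K562. GTF3A, which binds 5S rRNA genes, averaged 128 ± 6.53 CPM in K/VP.5 and 73.4 ± 10.3 CPM in K562 and rose by 0.81 (edgeR adjusted p = 0.000117). GTF3C3, a TFIIIC subunit, rose by 0.39. POLR3E, a polymerase subunit, fell by 0.52, and MAF1, a repressor of the polymerase, fell by 0.30. Of 11 RNase P and MRP protein genes 3 rose and 1 fell. RPP25, which binds the RNA of both enzymes, averaged 18.9 ± 4.92 CPM in K/VP.5 and 5.41 ± 2.18 CPM in K562 and rose by 1.80 (edgeR adjusted p = 0.000259). Its relative RPP25L rose by 0.39, and RPP30 fell by 0.68.

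Of 16 snRNP assembly genes 4 fell in K/VP.5 against K562 and none rose, with 1 higher at an unadjusted p under 0.05 and 0 by DESeq2. CLNS1A, a chaperone of Sm proteins, averaged 92.8 ± 1.13 CPM in K/VP.5 and 152 ± 4.62 CPM in K562 and fell by 0.72 (edgeR adjusted p = 4.16e-07). NCBP2, the small cap-binding subunit, fell by 0.73. Of 7 tested Sm genes 2 fell, SNRPD1 by 0.67 and SNRPD2 by 0.31. Of 3 U1 protein genes SNRNP70 rose, by 0.36. Of 7 genes of the 7SK particle and P-TEFb, CDK9, the kinase, fell by 0.29.

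In edit-3 against K/VP.5, 4 partner genes rose and 9 fell, 11.4% changed beside 23.6% of all genes, with a median of -0.10. Of the 8 signal recognition particle genes 2 fell, SRP68 by 0.26 and the receptor gene SRPRA by 0.21. SNRNP70, the U1-70K protein, averaged 241 ± 31.1 CPM in edit-3, against 329 ± 7.75 CPM in K/VP.5, and fell by 0.45 (edgeR adjusted p = 0.00133). NCBP2 averaged 61.6 ± 5.20 CPM in edit-3, against 43.2 ± 3.90 CPM in K/VP.5, and rose by 0.51 (edgeR adjusted p = 0.000293). SSB, the La protein that binds new polymerase III transcripts, fell by 0.34, as did GTF3C1 of TFIIIC by 0.26, while BRF1 of TFIIIB rose by 0.25. CDK9 rose by 0.25, RPP25L rose by 0.33 and RPP14 fell by 0.46. INTS8 fell by 0.38, the cap hypermethylase gene TGS1 by 0.28, and PRPF3 of the U4/U6 particle by 0.36. No Sm gene passed by edgeR, at an unadjusted p under 0.05 or by DESeq2. The count of 13 was 24 without edit-3 replicate 1. It was 8, 5 and 7 without edit-3 replicates 2, 3 and 4, and 5, 7 and 5 without K/VP.5 replicates 1, 2 and 3.

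In edit-3 against K562, 9 partner genes rose and 26 fell, 30.7% changed beside 39.2% of all genes, with a median of -0.13. In the snRNA promoter and Integrator list 3 of 21 rose and 9 fell. SNAPC4 averaged 55.2 ± 13.8 CPM in edit-3 and 123 ± 15.7 CPM in K562 and fell by 1.16 (edgeR adjusted p = 7.36e-05). INTS3 fell by 0.39, and INTS1 and INTS6 rose by 0.55 and 0.40. In the polymerase III list 3 of 24 rose and 4 fell, with GTF3A at 0.75, GTF3C3 at 0.22, POLR3E at -0.79 and GTF3C1 at -0.45. Among 11 RNase P and MRP genes 2 rose, RPP25 by 2.04 and RPP25L by 0.72, and 2 fell, RPP30 by 0.75 and POP5 by 0.56. CLNS1A fell by 0.82 and STRAP of the SMN complex by 0.43, among 5 of 16 assembly genes that fell. SNRPD1 fell by 0.80 and SNRPD2 by 0.35, among 3 of 7 Sm genes. MEPCE, which caps 7SK RNA, fell by 0.48, and SNRNP200, the helicase that unwinds U4 from U6, fell by 0.22. Of the signal recognition particle genes SRP9 rose by 0.18 and SRPRA fell by 0.33, and no U1 protein gene passed by edgeR, with 1 at an unadjusted p under 0.05 and 0 by DESeq2.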

How the data were processed

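RNA sequencing counts were deposited by the authors as 1 table of raw gene counts for 12 libraries. Per the submitters' processing notes, reads were handled with HISAT2 2.1.0 and featureCounts of Subread 1.5.1 on GRCh38. The annotation release, strand setting and treatment of multi-mapping reads are not given in those notes or the labels. Of the table's gene identifiers 99.8% matched GENCODE release 29, used for positions, overlaps and sequences. Some sequences are not reported here.

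Tests used edgeR 4.0.16 under R 4.3.3: TMM scaling, filterByExpr, robust quasi-likelihood fit of all 12 libraries with 1 coefficient per line, and Benjamini-Hochberg adjustment over 18286 tested genes, which hold 99.9% of reads. The 4 members with reads passed the filter. SE is the log2 fold change divided by the square root of F. The pipeline was tested on simulated data. DESeq2 1.42.0, other scalings and filters, and leaving out each library were alternatives. Libraries of a line differed beyond sampling noise (chi-square per degree of freedom 6.68 to 67.4), so none was counted as a duplicate.

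Replicate numbers paired K/VP.5 with K562 by the data only and in part: deviations of same-numbered libraries correlated at 0.50, 0.29, 0.24 and 0.73. They were the best matches in both directions for replicates 2 and 4 only. For edit-3 these values were 0.57, -0.11, -0.17 and 0.53 with K/VP.5, and 0.69, 0.069, -0.14 and 0.49 with K562. Replicates 1 and 4 were best matches in both directions, and replicates 2 and 3 were not, so edit-3 was paired in part with each line.

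Named partner genes are, for each list and comparison, the called genes with the smallest adjusted p, at most 2 higher and 2 lower. Named copies are the 2 of each kind with the most reads, and alike genes the 3 with the highest r for each member. The members and lists were chosen with earlier results of these data known. The labels' description field names parental cells for every library, against the source names, and was not used.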

Additional observations from a re-analysis of the deposited data

Results flagged for a closer look

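In 6 of 63 groups of 4 libraries, 1 library stood apart by a gap test, where chance gives about 1 in 20. The value is the gap to the nearest library divided by the group's range. RN7SL2 was lowest in K562 replicate 1 (0.890), as was RN7SL5P (0.959), and RNU7-75P was highest there (0.913). RNU4-2 was highest in K562 replicate 2 (0.873), as was RNU5E-1 (0.842). RNU5F-1 was lowest in edit-3 replicate 3 (0.935).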

How the results depend on the processing

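RN7SL2 kept its direction and call in K/VP.5 against K562 in all 21 alternatives, at -0.73 to -0.52. Of the 4 members tested, the count changed there was 3, with 1 without the filter on low counts and 1 to 4 when each library was left out. In edit-3 against K/VP.5 the count of the 4 members changed was 1, with 0 when only the 2 lines compared were fitted and 0 to 1 without a library. In edit-3 against K562 that count of the 4 members was 1, with 0 without the filter and 0 to 3 without a library. Partner genes changed in edit-3 against K/VP.5 numbered 13, with 24 with the replicate block and 5 to 24 without a library. Directions turned, with no call, in edit-3 against K/VP.5 for RNU1-1 (-0.25 to 0.083 without a library) and RNU4-2 (-0.19 to 0.21), and in edit-3 against K562 for RNU5A-1 with all copies summed (-0.18). In edit-3 against K562 the replicate block put RN7SL2 at -0.28 (edgeR adjusted p = 0.0453) and RNU1-1 at -0.80 (0.0709). Its numbers paired these lines at replicates 1 and 4 only. Beyond the RNU5A-1 call given with the results, the block changed no other call of a member. The causes were not tested. RNU5A-1, with 9 to 30 reads a library, did not pass the stricter filter and was not tested there.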
